A study of Mus musculus with 28 samples.

Results

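The genes described here are Lbh, Dpp4, Tnfsf15, Serpinf1, Fpr2 and Tnfaip2, 6 of the 25251 genes in the expression table. They are the regulators of angiogenesis that the study names in bone marrow mononuclear cells (MNCs), without its chemokine, PDGF and cell cycle genes. They were chosen by their difference between genotypes in MNCs, so their MNC values are given as a description with no test. Their levels in endothelial cells (ECs) and mesenchymal stromal cells (MSCs) were tested against each other and between genotypes. RNA was sequenced from sorted bone marrow cells of C57BL/6 mice aged 8 to 10 wk, either Flt3+/+ or homozygous for a knock-in of an internal tandem duplication of Flt3 (Flt3ITD/ITD). The knock-in stands in the germline, so that stromal cells carry it as well as blood cells. Stromal cells lacking CD45 and Ter119 were sorted from collagenase-treated bone, as ECs if they carried CD31 and as MSCs if they carried Sca1 but neither CD31 nor CD166, with 5 libraries per genotype. The MNCs had 4 libraries per genotype, and each library of any kind came from a small number of sorted cells. The study describes each library as the cells of a single mouse, but the labels do not tie the libraries of different populations to a mouse. The labels give all 3 populations the cell type of bone lining cells.

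Blood vessels sprout when signals that drive endothelial cells to divide and migrate outweigh the factors that hold them back. Serpinf1 encodes pigment epithelium-derived factor, a secreted protein that restrains vessel growth, and Tnfsf15 encodes a TNF family ligand that inhibits endothelial proliferation and signals through Tnfrsf25. Dpp4 (CD26) is a cell surface peptidase that trims chemokines and other peptides, and Lbh is a transcriptional regulator first known from limb bud and heart. Fpr2 is a formyl peptide receptor of neutrophils and other phagocytes, and Tnfaip2 is a TNF-induced protein related to the exocyst. Marrow MNCs are mostly maturing myeloid cells, whereas MSCs are a main source of secreted matrix and niche factors.

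In GRCm38, Lbh lies on chr17:72918305-72941947 on the plus strand and its longest coding transcript has 3 exons. Dpp4 lies on chr2:62330073-62412231 (minus strand, 26 exons), Tnfsf15 on chr4:63727084-63745113 (minus, 4 exons) and Serpinf1 on chr11:75409769-75422701 (minus, 8 exons). Fpr2 lies on chr17:17887824-17893952 (plus, 2 exons) and Tnfaip2 on chr12:111442469-111455018 (plus, 12 exons). The authors dropped reads with several possible origins, so the share of each transcript that other genes repeat bears on its count. Of the 51-base windows of the Fpr2 transcript, 36.6% also occurred in its neighbor Fpr3 or in Gm5966, and exons annotated to Fpr3 overlap those of Fpr2. The levels of Fpr2 are therefore uncertain to that extent. In Tnfaip2, 2.05% of windows were shared, with the antisense gene Gm40578, whose exons overlap its own, and reads of the pair cannot be told apart if strand was not kept. The share was at most 0.397% in the other 4 genes, and 0 in Dpp4 and Serpinf1.

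The 250 bases before the annotated start are shown for 4 of the genes, to set the promoters of genes with higher levels in Flt3ITD/ITD MNCs (Lbh and Dpp4) beside those of the gene most abundant in MSCs (Serpinf1) and of the neutrophil receptor (Fpr2). The sequences are from RefSeq on GRCm38.p6, read 5′ to 3′ on the strand of the gene. They span chr17:72918055-72918304 for Lbh, chr2:62412232-62412481 for Dpp4, chr11:75422624-75422873 for Serpinf1 and chr17:17887574-17887823 for Fpr2. Capitals mark TATAAA or the STAT-type motif TTCNNNGAA, searched on both strands. The motifs do not overlap each other. The starts are those of RefSeq, whereas the gene spans given above are from GENCODE. For Serpinf1 and Tnfsf15 the RefSeq start lies inside that span, so part of the window does too.
Lbh: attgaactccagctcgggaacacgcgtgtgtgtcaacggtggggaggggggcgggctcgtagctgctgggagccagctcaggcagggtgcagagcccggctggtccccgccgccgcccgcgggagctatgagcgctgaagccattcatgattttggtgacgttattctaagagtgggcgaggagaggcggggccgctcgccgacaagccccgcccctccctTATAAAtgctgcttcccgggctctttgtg
Dpp4: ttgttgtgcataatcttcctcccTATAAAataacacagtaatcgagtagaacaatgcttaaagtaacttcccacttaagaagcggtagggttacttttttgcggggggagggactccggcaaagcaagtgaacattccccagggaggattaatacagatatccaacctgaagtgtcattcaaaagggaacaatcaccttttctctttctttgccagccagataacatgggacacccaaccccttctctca
Serpinf1: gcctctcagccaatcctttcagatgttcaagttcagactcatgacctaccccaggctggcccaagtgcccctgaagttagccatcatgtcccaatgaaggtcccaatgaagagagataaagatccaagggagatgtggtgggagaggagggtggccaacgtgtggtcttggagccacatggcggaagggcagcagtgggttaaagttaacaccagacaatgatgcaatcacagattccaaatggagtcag
Fpr2: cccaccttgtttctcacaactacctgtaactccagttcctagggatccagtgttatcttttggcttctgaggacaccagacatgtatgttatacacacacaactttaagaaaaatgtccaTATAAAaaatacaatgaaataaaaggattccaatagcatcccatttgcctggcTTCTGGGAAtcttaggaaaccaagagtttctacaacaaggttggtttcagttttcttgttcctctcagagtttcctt
Lbh carried TATAAA from 29 to 24 bases before the start, Dpp4 from 227 to 222 and Fpr2 from 130 to 125. Fpr2 also carried TTCNNNGAA from 77 to 69 bases before the start. Of 32851 promoters of the same length, 12.4% held TATAAA and 7.02% held TTCNNNGAA. Neither motif, nor the AP-1 motif TGANTCA (6.75% of promoters), occurred in this window of Serpinf1 or Tnfsf15. CpG pairs numbered 21 in Lbh, 4 in Dpp4, 3 in Tnfsf15, 2 in Serpinf1 and 0 in Fpr2, where the median promoter had 6.

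Total counts ranged from 6377013 to 33880743 per library. Levels are given as RPKM, the read count scaled to transcript length and library total, and a count of 3 was taken as the floor, for counting error only. The markers of each population were at high levels in it. The summed RPKM of 10 endothelial genes was 1953 to 2836 in ECs and at most 31.3 elsewhere, and that of 10 mesenchymal genes was 27764 to 32386 in MSCs, at most 240 in ECs and at most 16.8 in MNCs. Ptprc (CD45) was between 125 and 161 RPKM in every MNC library. Some libraries stood apart. In MNCs, the summed RPKM of 12 neutrophil genes was 160751 to 194361 in Flt3+/+ and 175167 and 152167 in Flt3ITD/ITD libraries 1 and 2, but 43222 and 58324 in Flt3ITD/ITD libraries 3 and 4. Flt3ITD/ITD MNC library 3 also had 18913 RPKM of Cd74, an invariant chain of antigen-presenting cells, against at most 2140 in the other 7. Immediate-early genes summed to 587 to 904 RPKM in MNC libraries 1 and 2 of both genotypes and to 50.7 to 84.6 in libraries 3 and 4. Other marker sums also moved with genotype in MNCs. Between Flt3+/+ and Flt3ITD/ITD, 10 monocyte genes summed to 2164 to 4040 and 3909 to 5601 RPKM. The 12 dendritic cell genes summed to 609 to 2359 and 1941 to 21136 RPKM. Cd74 alone was at 482 to 2140 and 1547 to 18913 RPKM, near those sums, so they add little beyond it. The 10 erythroid genes found, of 12 listed, summed to 44.6 to 8289 and 236 to 1212 RPKM. The monocyte receptors Cx3cr1 (7.59 to 20.1 and 25.4 to 76.8 RPKM) and Csf1r (19.1 to 42.5 and 49.7 to 73.6 RPKM) did not overlap between genotypes. Ccr2 (162 to 299 and 255 to 798 RPKM) and Ms4a6c (102 to 310 and 231 to 490 RPKM) did overlap. B cell genes (12 genes) summed to 503 to 1285 and 236 to 853 RPKM, and T and natural killer cell genes (12 genes) to 201 to 439 and 278 to 515 RPKM. The part of these cell types in the MNC differences given next was not tested. Neutrophil genes reached 29508 RPKM in Flt3ITD/ITD EC library 2 and 6054 in Flt3ITD/ITD MSC library 5.

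In MNCs, Lbh, Dpp4, Tnfsf15 and Serpinf1 were at higher mean levels in Flt3ITD/ITD, and Fpr2 and Tnfaip2 at lower ones. The genotypes did not overlap in 4 of the 6, Serpinf1 and Fpr2 being the exceptions. Of all 13926 genes tested in MNCs, 6.71% had genotypes that did not overlap, 797 higher and 137 lower in Flt3ITD/ITD. Tnfsf15 was too low in MNCs to be among the genes tested. Because the genes were selected on this contrast, nothing is read from their count. In bulk libraries such as these, fewer cells of a type and less RNA per cell cannot be told apart.

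Lbh was at 1.55, 1.65, 1.19 and 1.73 RPKM in the 4 Flt3+/+ MNC libraries and at 11.3, 11.6, 13.6 and 6.31 RPKM in the 4 Flt3ITD/ITD libraries. All Flt3ITD/ITD values lay above all Flt3+/+ values, with the lowest 6.31 against the highest 1.73. The means were 10.7 ± 3.10 and 1.53 ± 0.238 RPKM (SD, n = 4 each), a 7.0-fold ratio. Its log2 ratio stayed between 2.67 and 2.99 when any library was left out. It was 2.84 among libraries 1 and 2 and 2.77 among libraries 3 and 4.

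Dpp4 was at 7.04, 11.0, 8.27 and 6.65 RPKM in Flt3+/+ and 24.8, 21.2, 59.1 and 30.4 RPKM in Flt3ITD/ITD MNCs. The Flt3ITD/ITD values were all higher, and the highest, 59.1, was in library 3, the library with the high Cd74 and with 1997 RPKM of the dendritic cell lectin Cd209a (at most 272 in the others). The part of those cells in its Dpp4 level was not tested. The means were 33.9 ± 17.2 and 8.25 ± 1.98 RPKM (n = 4 each), a 4.11-fold ratio. Without that library the log2 ratio was 1.63, against 2.04 with it, and it was 1.35 among libraries 1 and 2. T and natural killer cells also carry Dpp4. The T cell gene Cd3e was at 2.13, 8.99, 4.91 and 3.38 RPKM in the Flt3+/+ libraries and 0.04, 11.3, 0.03 and 16.9 RPKM in the Flt3ITD/ITD libraries. In the same order, the 12 T and natural killer cell genes summed to 267, 439, 201 and 244 RPKM and to 368, 278, 305 and 515 RPKM. The sum was thus not low where Cd3e was near 0. The part of these cells in the Dpp4 levels was not tested.

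Tnfsf15 was near the floor in MNCs. It had 3, 1, 1 and 1 counts in the Flt3+/+ libraries and 6, 32, 34 and 22 counts in the Flt3ITD/ITD libraries. Every Flt3ITD/ITD library had more counts than any Flt3+/+ library, but library 1, with 6, was close to them. The summed counts per library total differed 15.2-fold, a description on the libraries by which the gene was chosen. The level stayed at or under 0.29 RPKM in every MNC library.

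Serpinf1 was at 6.43, 9.53, 2.74 and 1.77 RPKM in Flt3+/+ and 15.6, 6.64, 21.5 and 21.8 RPKM in Flt3ITD/ITD MNCs. The groups overlapped, since Flt3ITD/ITD library 2 lay below Flt3+/+ library 2 and close to library 1. The means were 16.4 ± 7.08 and 5.12 ± 3.56 RPKM (n = 4 each), a 3.2-fold ratio. The log2 ratio was 0.477 among libraries 1 and 2 and 3.26 among libraries 3 and 4. The sum of the mesenchymal genes was 1.01 to 2.50 RPKM in 7 of the MNC libraries and 16.8 in Flt3ITD/ITD library 2, which had the lowest Serpinf1 of its genotype.

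Fpr2 was at 260, 149, 195 and 143 RPKM in Flt3+/+ and 126, 151, 20.9 and 30.4 RPKM in Flt3ITD/ITD MNCs. Flt3ITD/ITD library 2 lay within the Flt3+/+ range, library 1 just under it, and libraries 3 and 4 far below. The means were 82.0 ± 66.0 and 187 ± 54.1 RPKM (n = 4 each), 2.28-fold lower in Flt3ITD/ITD. The low values fell in the libraries with low neutrophil markers. Per 1000 RPKM of those markers, Fpr2 was at 0.861 to 1.34 RPKM in Flt3+/+ and 0.484 to 0.993 in Flt3ITD/ITD, so the groups overlapped on that scale too. The log2 ratio of RPKM was -0.564 among libraries 1 and 2 and -2.72 among libraries 3 and 4. The part of the neutrophil content in this difference was not tested. Ngp, S100a8, Mmp8, Camp and Csf3r were lower in libraries 3 and 4 than in any Flt3+/+ library, Mmp8 at 111 and 88.9 RPKM against 478 to 829. Elane, a protease of early granulocytes, was not low there, at 1578 and 1461 RPKM against 149 to 1006 in Flt3+/+. Mpo was not low either, at 2120 and 2188 RPKM against 300 to 772. Elane was highest, at 2006 RPKM, in Flt3ITD/ITD library 1, where the neutrophil genes summed to 175167 RPKM.

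Tnfaip2 was at 25.2, 23.6, 21.7 and 21.3 RPKM in Flt3+/+ and 15.7, 17.0, 11.1 and 11.1 RPKM in Flt3ITD/ITD MNCs. All Flt3ITD/ITD values were lower, although the gap between the groups was small, from 17.0 to 21.3. The means were 13.7 ± 3.09 and 22.9 ± 1.80 RPKM (n = 4 each), 1.67-fold lower in Flt3ITD/ITD. The lower pair came from libraries 3 and 4, with few neutrophil transcripts, and the part of the neutrophil content was not tested. The log2 ratio was -0.576 among libraries 1 and 2 and -0.955 among libraries 3 and 4.

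**Figure D1:**
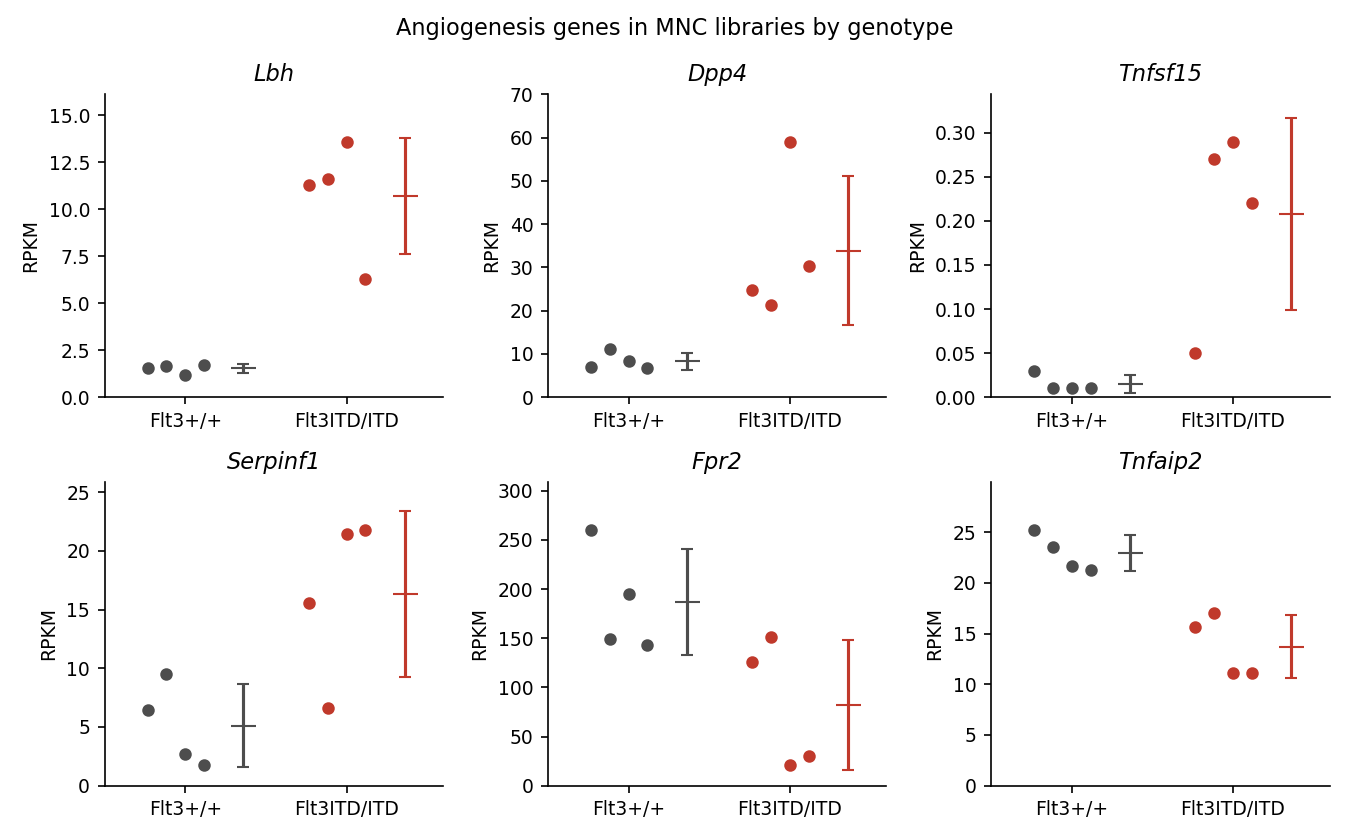
RPKM of each gene in the 8 MNC libraries, with a panel per gene; points are libraries in replicate order within each genotype, and the bar beside them is the mean ± SD of 4 libraries. The genotypes are apart for Lbh, Dpp4, Tnfsf15 and Tnfaip2 and overlap for Serpinf1 and Fpr2.

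**Figure D2:**
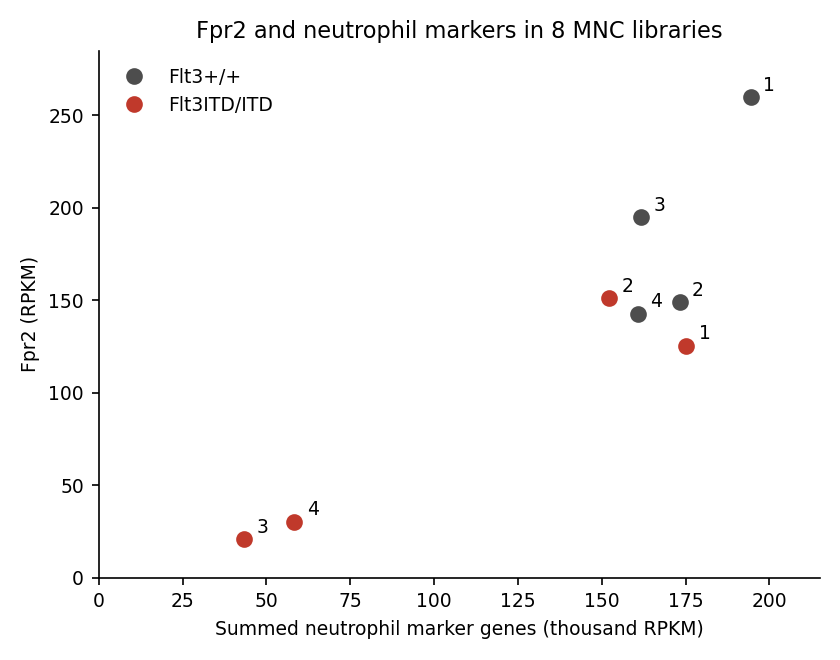
Fpr2 (RPKM) against the summed RPKM of 12 neutrophil genes in each MNC library, numbered by replicate. Flt3ITD/ITD libraries 3 and 4 sit at 43222 and 58324 RPKM of neutrophil genes with 20.9 and 30.4 RPKM of Fpr2, and the other 6 libraries lie at 152167 RPKM or more.

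Outside MNCs, the genes fell into different patterns of population. Serpinf1 was an abundant transcript of MSCs, Dpp4 was shared by MSCs and MNCs, Fpr2 was an MNC gene, Tnfaip2 was present in all 3 populations, and Lbh and Tnfsf15 were low throughout the stroma. ECs and MSCs were compared within each genotype with edgeR's quasi-likelihood test, and p-values were adjusted over all genes by the Benjamini-Hochberg method with a threshold of 0.1. The genes were selected on the MNC libraries, so their levels in MNCs are set beside those of the stroma with no test.

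Between ECs and MSCs of Flt3+/+ mice, 4 of the 6 genes were called, all lower in ECs. Of all 15616 genes tested, 26.3% were called in either direction, 2159 of them lower in ECs. The 4 were Dpp4, Serpinf1, Tnfsf15 and Tnfaip2, of which Dpp4 and Serpinf1 were called in a fit of these 2 populations alone. In Flt3ITD/ITD mice 3 were called, Dpp4, Serpinf1 and Tnfaip2, again all lower in ECs. Of all 15651 genes there, 24.6% were called in either direction, 2062 of them lower in ECs. Fpr2 entered these fits through its MNC counts and was at or near 0 counts in both stromal populations. Dpp4 and Serpinf1, and in Flt3+/+ Tnfsf15, entered through MSCs or MNCs, so lower in ECs was the likely direction of a call.

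In MSCs, Serpinf1 was between 1072 and 1354 RPKM in Flt3+/+ and between 1032 and 1611 RPKM in Flt3ITD/ITD, which placed its mean at rank 76 and rank 71 among all genes. In ECs it was at 0.59, 0, 19.5, 0 and 0.02 RPKM in Flt3+/+ and at no more than 0.37 RPKM in Flt3ITD/ITD. The EC libraries were thus at or near 0 except Flt3+/+ library 3, with 363 counts. Its mesenchymal marker sum, 58.0 RPKM, lay within the 12.1 to 97.8 RPKM of its group, and the source of these counts was not tested. The log2 fold change of ECs against MSCs was -8.33 ± 1.79 (SE, adjusted p = 0.00458 in edgeR) in Flt3+/+ and -13.35 ± 1.09 (adjusted p = 2.46e-06) in Flt3ITD/ITD. Without Flt3+/+ EC library 3 the first was -13.12. DESeq2 gave no adjusted p for Serpinf1 in the Flt3+/+ comparison and called 3 members there.

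The MNC libraries, at 1.77 to 21.8 RPKM of Serpinf1 over both genotypes, lay below every MSC library. All Flt3ITD/ITD MNC libraries, at 6.64 RPKM or more, lay above all Flt3ITD/ITD EC libraries. In Flt3+/+ the MNC libraries, at 1.77 to 9.53 RPKM, were above all EC libraries but library 3.

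Dpp4 was at 16.6 to 29.9 RPKM in Flt3+/+ MSCs and 12.6 to 54.4 RPKM in Flt3ITD/ITD MSCs. In ECs it never exceeded 3 counts in a library. MSCs had 1680 times the Dpp4 counts of ECs per library total in Flt3+/+ (exact binomial 95% interval 770 to 4570, counting error only). The test of ECs against MSCs gave adjusted p = 1.03e-07 in Flt3+/+ and 2.44e-07 in Flt3ITD/ITD (edgeR). Flt3+/+ MNCs, at 6.65 to 11.0 RPKM, lay below MSCs without overlap. In Flt3ITD/ITD the MNC and MSC libraries overlapped, with means of 33.9 and 33.2 RPKM.

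Tnfsf15 varied widely between MSC libraries. Its counts were 28, 457, 47, 0 and 611 in Flt3+/+ MSCs and 7, 26, 1, 498 and 2 in Flt3ITD/ITD MSCs, so that most of its counts were in 3 libraries of 10. In ECs the counts were between 2 and 15. MSCs of Flt3+/+ had more than ECs (log2 fold change of ECs against MSCs -5.08 ± 1.29, adjusted p = 0.0128 in edgeR). In Flt3ITD/ITD the value was -3.11 ± 1.49 (adjusted p = 0.176, edgeR). The Flt3+/+ call depended on MSC libraries 1, 2, 3 and 5, since the filter on low counts removed Tnfsf15 when any of them was left out. Without Flt3ITD/ITD MSC library 4, with its 498 counts, the Flt3ITD/ITD value became 0.53. Tnfrsf25, the receptor, was at 0 to 9.74 RPKM in Flt3+/+ ECs and 0 to 5.34 RPKM in Flt3ITD/ITD ECs. It was at 0 to 1.89 and 0 to 0.95 RPKM in Flt3+/+ and Flt3ITD/ITD MSCs, and at no more than 0.03 and 0.58 RPKM in the MNCs.

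Lbh was at 2.38, 0.52, 2.43, 0.98 and 0.02 RPKM in Flt3+/+ ECs and 0.35, 0.03, 0.06, 3.56 and 0.02 RPKM in Flt3ITD/ITD ECs. In MSCs it was between 0.32 and 2.47 RPKM in Flt3+/+ and between 0.05 and 1.39 RPKM in Flt3ITD/ITD. The EC libraries of each genotype thus ranged from 0.02 RPKM, or 2 counts, to 2.43 and 3.56 RPKM, and Flt3+/+ MNCs, at 1.19 to 1.73 RPKM, lay within their range. Lbh was not called between ECs and MSCs in either genotype. All 4 Flt3ITD/ITD MNC libraries, at 6.31 RPKM or more, lay above all 10 stromal libraries of that genotype.

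Fpr2 was found at 0 to 2 counts per library in ECs and at 0 counts in all 5 Flt3+/+ MSC libraries. Of the Flt3ITD/ITD MSC libraries, 3 were at 0, library 3 had 4 counts and library 5 had 11 counts. Library 5 was the MSC library with 6054 RPKM of neutrophil genes. In contrast, Flt3ITD/ITD EC library 2, with 29508 RPKM of neutrophil genes, had 0 counts of Fpr2, which allows up to 3. Flt3+/+ MNCs had at least 1780-fold more Fpr2 per library total than MSCs, taking 3 counts per MSC library as the floor.

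Tnfaip2 was at 7.20 to 34.6 RPKM in Flt3+/+ MSCs and 11.9 to 31.6 RPKM in Flt3ITD/ITD MSCs, in the range of MNCs. In ECs it varied from 0.02 to 11.0 RPKM in Flt3+/+ and from 0.26 to 7.51 RPKM in Flt3ITD/ITD. ECs were lower than MSCs, with a log2 fold change of -2.55 ± 0.90 in Flt3+/+ (adjusted p = 0.0621, edgeR) and -2.81 ± 0.69 in Flt3ITD/ITD (adjusted p = 0.0124). The Flt3+/+ call was lost in 4 of the 10 fits that left out an EC or MSC library (ECs 2 or 3, MSCs 2 or 3). The MNC libraries of each genotype, at 21.3 to 25.2 and 11.1 to 17.0 RPKM, lay above all EC libraries of that genotype.

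**Figure D3:**
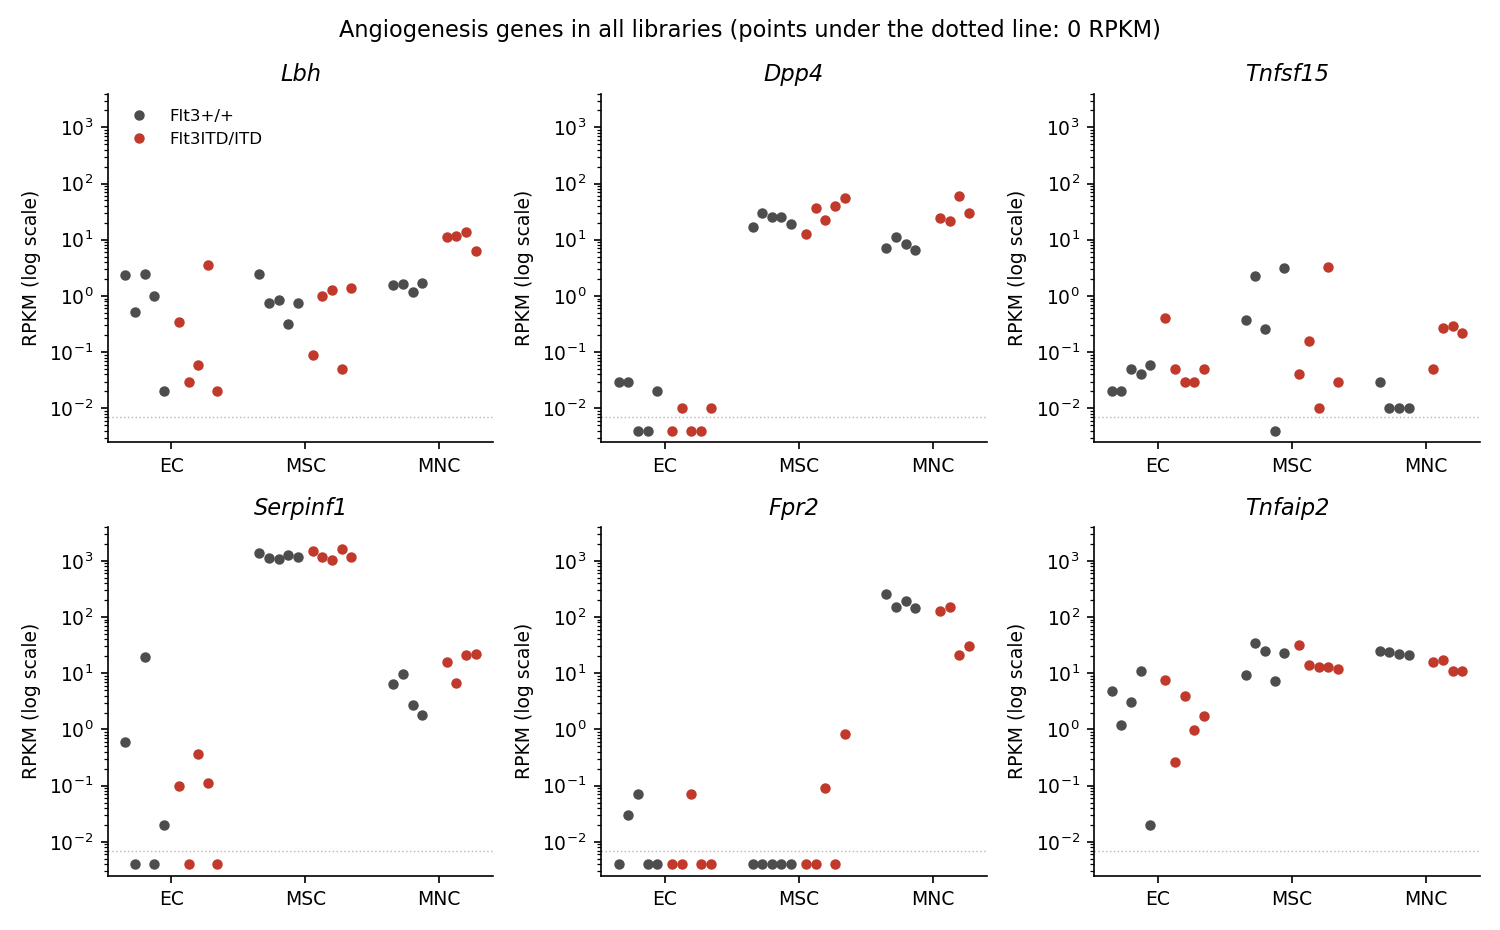
RPKM of each gene in all 28 libraries on a log axis, by population and genotype; points under the dotted line are libraries at 0 RPKM. Serpinf1 lies at 1032 RPKM or more in every MSC library, Fpr2 is high in MNCs, and Dpp4 is at or near 0 in ECs.

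None of the 6 genes was called between genotypes in the stroma. In ECs, Lbh and Tnfaip2 passed the filter on low counts and neither was called by edgeR, where 1 of 12351 genes was called (0.0081%). In MSCs, 5 genes passed the filter and 0 were called, against 4 of 13574 genes (0.0295%). Among the members that passed, the counts at an unadjusted p under 0.05 were 0 in ECs and 0 in MSCs, and DESeq2 also called 0 in each. Members that the filter removed were read from an edgeR fit without it. There Fpr2 in MSCs had an unadjusted p of 0.0329 (adjusted 0.598), with 0 counts in Flt3+/+ and at most 11 in Flt3ITD/ITD. Those removed in ECs had an unadjusted p of 0.0638 or more (edgeR). The values of single libraries differed widely, as given above, and these tests do not show that the levels were alike.

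The log2 fold change of Flt3ITD/ITD over Flt3+/+ MSCs was 0.50 ± 0.34 for Dpp4 and 0.18 ± 0.16 for Serpinf1, with means of 33.2 ± 16.1 and 23.3 ± 5.40 RPKM for Dpp4 and 1299 ± 242 and 1196 ± 117 RPKM for Serpinf1 (n = 5 each). Both genotypes overlapped in each gene. It was -0.42 ± 0.93 for Lbh, -0.58 ± 1.73 for Tnfsf15 and -0.18 ± 0.45 for Tnfaip2. All 5 had an adjusted p of 0.999 (edgeR). In ECs it was -0.63 ± 1.45 for Lbh and -0.43 ± 1.19 for Tnfaip2, with an adjusted p of 1 for both. Leaving out 1 EC library at a time gave -3.56 (without Flt3ITD/ITD library 4) to -0.23 for Lbh, never called. The estimates for Lbh in MSCs and Tnfaip2 in either population changed sign when 1 library was left out, as did that for Tnfsf15 in MSCs. Whether the genotype difference itself differed between ECs and MSCs was tested by an interaction term, and 0 of the 5 genes that passed the filter were called (0.00659% of all genes). Serpinf1 had the smallest p of those 5 (0.0167, adjusted 0.536, edgeR), with an interaction of -5.01 ± 1.91 that fell in size to -0.25 without Flt3+/+ EC library 3.

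**Figure D4:**
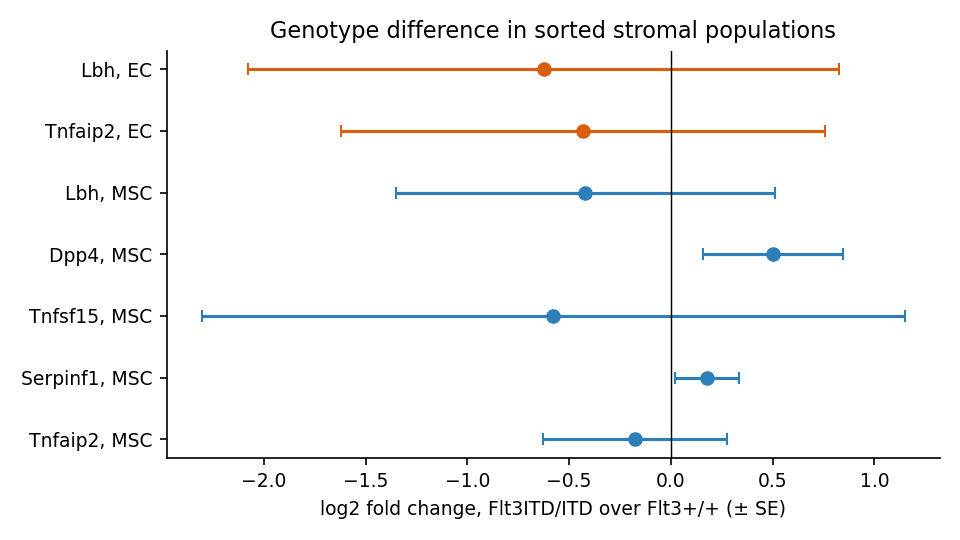
Fitted log2 fold change of Flt3ITD/ITD over Flt3+/+ (± SE, edgeR) for the members that passed the filter in MSCs (5 genes) and ECs (2 genes). Dpp4 and Serpinf1 in MSCs, at 0.50 and 0.18, have the shortest error bars, and none of the 7 estimates passed the test.

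Partners of the 6 genes were taken from lists of receptors, ligands and relatives. None of the genes on these lists was called between genotypes by edgeR in ECs, MSCs or MNCs, where in MNCs 2 of all 13926 genes were called (0.0144%). In MNCs, 5 of 6 Tnfsf15 partners, 8 of 9 Dpp4 relatives, 5 of 5 Serpinf1 receptors, 4 of 10 genes of the Fpr2 list and 6 of 8 of the Tnfaip2 list could be tested by edgeR, and 3 of these 28 had an unadjusted p under 0.05.

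Those 3 were Plxdc2, Prcp and Fpr3. Plxdc2, reported as a receptor for the Serpinf1 protein, was at 0 to 0.43 RPKM in Flt3+/+ and 1.32 to 8.92 RPKM in Flt3ITD/ITD MNCs, without overlap (log2 fold change 4.56 ± 1.27, adjusted p = 0.397, edgeR). In MSCs, in contrast, it was at a mean of 70.1 RPKM in both genotypes (SD 12.1 and 21.6, n = 5 each). Prcp, a peptidase that like Dpp4 cleaves after proline, was at 37.1 to 44.2 RPKM in Flt3+/+ and 58.2 to 114 RPKM in Flt3ITD/ITD MNCs (log2 fold change 0.84 ± 0.25, adjusted p = 0.415 in edgeR and 0.0878, under the threshold, in DESeq2). Fpr3 was low, at 1.13 to 2.23 RPKM in Flt3+/+ and 0.16 to 1.09 RPKM in Flt3ITD/ITD (log2 fold change -1.74 ± 0.66, adjusted p = 0.429, edgeR).

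Fpr1, another formyl peptide receptor of phagocytes, was at 251, 144, 229 and 276 RPKM in Flt3+/+ and 103, 138, 3.32 and 17.8 RPKM in Flt3ITD/ITD MNCs (log2 fold change -1.99 ± 0.90, adjusted p = 0.479, edgeR). Its low values fell in the same 2 libraries as those of Fpr2. Anxa1, a ligand of Fpr2, was abundant, at means of 3221 ± 380 and 2187 ± 1170 RPKM (n = 4 each) in Flt3+/+ and Flt3ITD/ITD MNCs and at 2522 ± 181 RPKM in Flt3+/+ MSCs (n = 5). ECs had less Anxa1 than MSCs, with a log2 fold change of -3.15 ± 0.27 in Flt3+/+ (adjusted p = 2.26e-06, edgeR).

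Across populations, the partners showed where the other side of each pair was expressed. Plxdc2 was lower in ECs than in MSCs (log2 fold change -5.33 ± 1.80, adjusted p = 0.0523, edgeR) and lower in MNCs than in MSCs (-9.19 ± 2.40, adjusted p = 0.00905) in Flt3+/+ mice. Fap, the peptidase most like Dpp4, was an MSC gene, at means of 50.5 and 56.1 RPKM in Flt3+/+ and Flt3ITD/ITD MSCs and below 1 RPKM on average in ECs and MNCs (ECs against MSCs in Flt3+/+, log2 fold change -6.42 ± 0.65, adjusted p = 1.02e-05, edgeR). Exoc3l2, a relative of Tnfaip2, was at a mean of 7.02 RPKM in Flt3+/+ ECs and at 0 in MSCs and no more than 0.02 RPKM in MNCs of that genotype, whereas Tnfaip2 was lower in ECs than in MSCs.

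Of 38 further angiogenesis inhibitors and 40 promoters, 37 and 40 were in the table. Between genotypes 0 were called in ECs, MSCs or MNCs by edgeR, and in MNCs 18 inhibitors and 26 promoters could be tested, with 2 and 1 at an unadjusted p under 0.05. Their median log2 fold changes in MNCs were 0.11 and 0.00, beside -0.01 over all genes. DESeq2 called Efnb2, an arterial ephrin ligand that edgeR's filter had removed (log2 fold change 5.79 ± 1.503, adjusted p = 0.0172). It had at most 1 count in any Flt3+/+ MNC library and at most 41 in Flt3ITD/ITD, so the size of this fold change is uncertain. Most of these genes were low in MNCs. In MNCs against ECs of Flt3+/+ mice, 2 inhibitors were higher and 29 lower of 35 tested, and 6 promoters were higher and 26 lower of 39, where 39.4% of all genes were called in either direction. In MNCs against MSCs of Flt3+/+ mice, 3 inhibitors were higher and 23 lower, and 6 promoters were higher and 22 lower (38.5% of all genes). In Flt3ITD/ITD, 2 inhibitors were higher and 25 lower than in ECs, and 4 promoters higher and 24 lower (36.1% of all genes). Against Flt3ITD/ITD MSCs the counts were 3 and 23 for inhibitors and 7 and 21 for promoters (33.5% of all genes). The promoters with the largest rise from ECs to MNCs were Mmp9, the gelatinase of neutrophils, Hgf and Ptgs2 (log2 fold changes 12.4, 6.81 and 5.95). Tgfbi and Pml were the inhibitors higher in MNCs (5.02 and 0.96), and Tek, Ephb4 and Efnb2 led the promoters that were lower. Tek, Ephb4 and Efnb2 had at most 1 count in any Flt3+/+ MNC library, so their order is uncertain. Mmp9, Hgf and Ptgs2 had at most 6, 4 and 7 counts in any Flt3+/+ EC library, so the size of their rise is uncertain too.

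Between Flt3+/+ ECs and MSCs, 13 inhibitors were higher and 11 lower in ECs of 35 tested, and 16 promoters were higher and 9 lower of 39. Of all genes tested, 26.3% were called in either direction. The largest differences among inhibitors were Robo4, Dll4 and Hhex in ECs (log2 fold changes 12.8, 11.1 and 10.7) and Tnmd, Thbs2 and Tgfbi in MSCs (-13.3, -10.7 and -5.92). Among promoters the largest were Egfl7, Kdr and Aplnr in ECs and Ptgs2, Hgf and Angpt1 in MSCs. No Flt3+/+ MSC library had more than 3 counts of Hhex or more than 1 of Robo4, Dll4, Egfl7, Kdr or Aplnr. Tnmd had at most 2 counts in a Flt3+/+ EC library. The sizes and order of the differences for these genes are therefore uncertain. Serpinf1 and Dpp4 lay on the MSC side, with Thbs2 and Tnmd.

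The genes whose level followed each member most closely over all 28 libraries were found by Pearson's r of log2(RPKM + 1), among 13727 genes with a mean of at least 1 RPKM. The libraries fall into 3 populations, so r mainly ranks genes by population and is given as a description. For Fpr2 they were Mmp9, Alox5 and Ceacam10 (r = 0.996, 0.996 and 0.995), genes of neutrophil granules and leukotriene synthesis among them. For Serpinf1 they were 4930592A05Rik, Lrp1 and Tmem119 (0.977, 0.967 and 0.965), and for Dpp4 Fam46a, Camk1d and Pla2g4a (0.954, 0.951 and 0.946). The 3 genes nearest to Dpp4 were higher on average in Flt3ITD/ITD than in Flt3+/+ MNCs, Fam46a at 28.8 against 10.4 RPKM. They were chosen by likeness over libraries that include the MNCs, so this follows in part from the choice. For Tnfaip2 the nearest were Tgfbi, Lgals3 and Gas7 (0.818, 0.815 and 0.814), for Tnfsf15 Arntl2, AK030263 and AK043847 (0.834, 0.796 and 0.769), and for Lbh Ppfia4, Cd209d and Tmem150b (0.793, 0.79 and 0.789). The likeness to Lbh came largely from the difference in MNCs, since within the 14 Flt3+/+ libraries r was 0.483, 0.261 and 0.298 for these 3 genes. Cd209d, a lectin of myeloid cells, was at means of 5.65 and 35.6 RPKM in Flt3+/+ and Flt3ITD/ITD MNCs.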

How the data were processed

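RNA-seq was analyzed in 28 libraries of ECs, MSCs and MNCs, with 5, 5 and 4 per genotype, grouped by their labels. The authors deposited read counts estimated with RSEM as whole numbers, after Bowtie alignment of single-end reads to mm10 transcripts and removal of reads mapping to more than 1 place. The authors also deposited RPKM for each gene, to 2 decimals. The versions of Bowtie and RSEM are not given in the sources used here. Libraries were amplified from few cells, without molecular identifiers, so counting intervals understate the error.

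Counts were tested with the quasi-likelihood test of edgeR 4.0.16 in R 4.3.3 (TMM normalization, filterByExpr, no covariates), and DESeq2 1.42.0 was an alternative, with p-values adjusted over all genes and a threshold of 0.1. Standard errors were derived from the F statistic. One fit covered the genotypes of each population, one the populations of each genotype, and one the interaction. Comparisons that include MNCs were tested for listed genes only, since the members were selected on those libraries. The tests were checked on simulated data. Members and gene lists were chosen with earlier results of these data known. The genes named are the members, genes of the partner lists with a mean of at least 1 RPKM in a population, up to 3 genes per direction with the largest fold change among called genes of the angiogenesis lists, and the 3 genes most like each member. Exons and shared 51-base windows were taken from GENCODE vM21 and promoters from RefSeq, both on the build the authors used. Alternatives were normalization, filter, test, replicate block, the libraries in the fit, the pseudocount and leaving out each library.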

Additional observations from a re-analysis of the deposited data

Results flagged for a closer look

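In 30 combinations of gene and group with more than 3 counts in some library, the highest or lowest library was compared with the rest of its group by Dixon's test, and 7 stood apart. The rate of about 1 in 20 that the test allows holds for normally distributed values. RPKM near 0 need not be so distributed, and no excess over chance is read from the 7. In ECs, Lbh was at 3.56 RPKM in Flt3ITD/ITD library 4 (next highest 0.35), Tnfsf15 at 0.4 RPKM in Flt3ITD/ITD library 1 (next 0.05) and Serpinf1 at 19.45 RPKM in Flt3+/+ library 3 (next 0.59). In MSCs, Lbh was at 2.47 RPKM in Flt3+/+ library 1 (next 0.84), Tnfsf15 at 3.32 RPKM in Flt3ITD/ITD library 4 (next 0.16), Fpr2 at 0.82 RPKM in Flt3ITD/ITD library 5 (next 0.09) and Tnfaip2 at 31.63 RPKM in Flt3ITD/ITD library 1 (next 14.09). All 7 were high values in ECs or MSCs, and none was in MNCs, whose groups of 4 need a wider gap.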

How the results depend on the processing

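Most results kept their direction and side of the threshold. Apart from leaving out libraries, 100 values stayed within 1.5 times, or 1 SD, of the value reported and 30 moved beyond that, all counts or ratios, and of the fold changes of single genes 65 were alike and 3 lost their call. Of the fits that left out a library, 188 fold changes were alike, 4 lost a call, 1 gained one and 5 changed sign. DESeq2 called more genes between genotypes over the whole table, 390 in ECs, 216 in MSCs, 457 in MNCs and 449 in the interaction, but 0 members in ECs or MSCs, and 2 listed pathway genes in MNCs (Efnb2 and Prcp). Without the filter on low counts, 0 genes were called in ECs and 2 in MSCs. Fitting the 2 populations alone gave 2687 genes and 2 members between Flt3+/+ ECs and MSCs, and 2327 genes in Flt3ITD/ITD. TMM-scaled CPM gave 3 members without overlap in MNCs, with Tnfsf15 removed by the filter.

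Over the genes tested, deviations of same-numbered libraries correlated between -0.073 and 0.0618, so the main fits did not pair libraries by replicate number. Such correlations cannot exclude structure shared by fewer genes. In MNCs of both genotypes, immediate-early genes were high in libraries 1 and 2 and low in libraries 3 and 4. With the replicate number as a block, 0 genes were called between genotypes in ECs, MSCs or MNCs, and 2 members (Dpp4 and Serpinf1) between Flt3+/+ ECs and MSCs. In MNCs, the log2 ratio among libraries 1 and 2 moved for Dpp4 (1.35) and Serpinf1 (0.477), and among libraries 3 and 4 for Dpp4 (2.58), Tnfsf15 (4.67), Serpinf1 (3.26) and Fpr2 (-2.72). The cause was not tested.

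Leaving out 1 library at a time gave 0 genes between genotypes in ECs, 0 to 2 in MSCs, 0 to 1 in MNCs and 1 to 4 in the interaction, and 2 to 4 members between Flt3+/+ ECs and MSCs. The genotype fold change ranged from -1.145 to 0.3333 for Tnfaip2 in ECs, and in MSCs from -0.72 to 0.2135 for Lbh, from -4.204 to 0.116 for Tnfsf15 and from -0.5283 to 0.1161 for Tnfaip2. Between populations it ranged from -4.323 to 0.5296 for Tnfsf15 (ECs against MSCs, Flt3ITD/ITD).

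Of the 3 genes most like each member, a pseudocount of 0.1 kept 0 for Lbh and Fpr2 and 1 for Dpp4, Tnfsf15 and Tnfaip2. Within Flt3+/+ libraries it was 0 for Lbh, Fpr2 and Tnfaip2 and 1 for Dpp4 and Serpinf1. Depth limited the values of Dpp4 and Fpr2 in ECs and of Tnfsf15 in Flt3+/+ MNCs, which were at 3 counts or fewer in every library.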
